A study of Mus musculus with 12 samples.

Results

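The genes described here are the ligands and receptors of the classical axon guidance families in the hippocampus of a mouse model of Alzheimer's disease. Members were taken by symbol, as the protein-coding genes that start with Sema, Plxn, Epha, Ephb, Efna, Efnb, Unc5 or Ntn, together with Nrp1, Nrp2, Slit1, Slit2, Slit3, Robo1, Robo2, Dcc and Neo1. Of 72 such genes, 68 passed the expression filter, among 14008 genes tested in all. Efna4, Epha1, Epha2 and Unc5cl did not pass. Unc50, a Golgi membrane protein, matches by its spelling alone and is not a netrin receptor. Whole right hippocampi of C57BL/6J mice aged 4.5 months were sequenced as poly-A-selected RNA from 6 females (4 APP/PS1 and 2 wild type, WT) and 6 males (4 APP/PS1 and 2 WT). APP/PS1 (APPSwe/Ps1dE9) mice carry a chimeric mouse/human APP with familial mutations and a human presenilin 1 without exon 9, both under a prion promoter element, and WT mice carry neither. The study asked how this genotype acts in each sex, and every sex rests on 2 WT animals.

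Axon guidance cues are secreted or membrane-bound proteins that attract or repel growing axons, and the receptors on the growth cone turn them into changes of the actin skeleton. Semaphorins act through plexins, the class 3 semaphorins with neuropilins as co-receptors, while ephrins act on Eph receptor tyrosine kinases, netrins on Dcc, neogenin and the Unc5 proteins, and Slits on Robo receptors. In the adult hippocampus many of them remain expressed, and they are known for roles at dendritic spines, in synapse formation and in plasticity.

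Counts per library ranged from 36714316 to 50643565, and levels are given as normalized CPM, the count scaled to library size. The neuron marker list was detected in full, with a summed level of 7813 to 8642 CPM in APP/PS1 and 8036 to 8396 CPM in WT libraries, and 0 of its 10 genes were called between the genotypes with the sexes averaged (2 at an unadjusted p under 0.05, and 1 called by DESeq2). Hippocampal subfield markers had a median log2 fold change of -0.21 in females and 0.12 in males. In females 4 were below 0 and 2 above, 3 of the 6 at an unadjusted p under 0.05. None was called there by edgeR's quasi-likelihood test, while DESeq2 called Fibcd1 and Prox1. The part of the subfields in the guidance values was not tested. Microglia markers were higher in every APP/PS1 library (583 to 988 CPM) than in any WT library (399 to 530 CPM). Choroid plexus markers reached 3966 CPM in APP/PS1 female 1, 4152 CPM in WT female 2 and 7047 CPM in APP/PS1 male 2, against 25.7 to 44.9 CPM in the other 9 libraries. The mouse gene App, at 1540 to 1659 CPM in APP/PS1 and 1550 to 1716 CPM in WT, did not separate the genotypes, so these counts do not check the labels.

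Guidance genes spanned a wide range of levels. Per kb of exon, the mean over the 12 libraries ran from 0.376 CPM for Sema3a to 52.9 CPM for Epha4. The median of the 68 members was 4.55 CPM per kb, against 5.76 for all genes tested, and 16 members were above 10. Epha4, a receptor for both ephrin classes that acts at dendritic spines, stood highest at 52.9 ± 3.38 CPM per kb (SD, n = 12), but its range of 47.9 to 57.8 overlapped that of the ephrin Efnb3 (44.5 ± 4.58, from 37.9 to 50.6). Sema7a, a semaphorin held in the membrane by a lipid anchor, followed at 42.4 ± 3.33 and Slit1 at 37.5 ± 4.25, again with ranges that overlapped their neighbour in the order.

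Families differed in the level of their highest member. Beside the genes above, the highest members included Unc5a among the netrin receptors (30.8 CPM per kb), Ephb6, an Eph receptor whose kinase is inactive (18.5), and Plxna1, a plexin that pairs with neuropilins (18.3). The secreted class 3 semaphorins sat low, with 9.77 CPM per kb for Sema3e and 4.38 or less for the other 6. Netrins were also low, between 1.31 CPM per kb for the secreted Ntn1 and 5.69 for Ntng2, a netrin-G that is tethered to the membrane. The neuropilins Nrp1 (8.36) and Nrp2 (6.69), the Robo receptors Robo2 (6.27) and Robo1 (3.69), and Dcc (3.27) lay near the middle of the order.

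**Figure D1:**
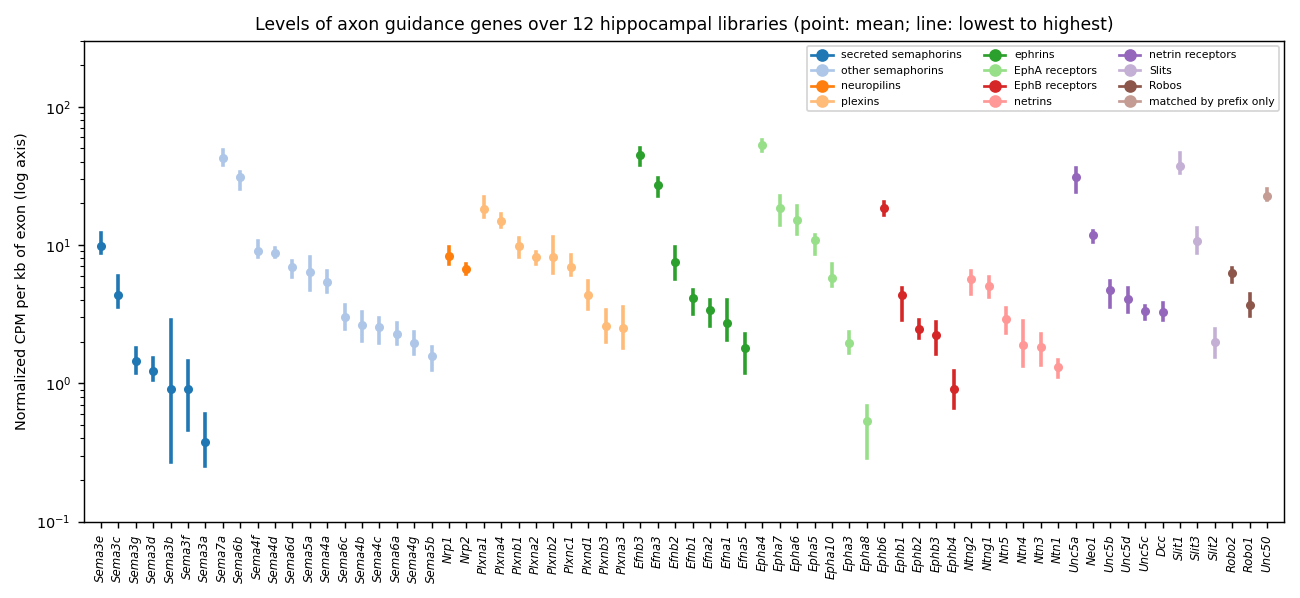
Mean level of each of the 68 guidance genes over 12 libraries (points, normalized CPM per kb of exon on a log axis) with the lowest and highest library (lines), grouped by family. Epha4 is highest at 52.9 and Sema3a lowest at 0.376, and Sema3b has the widest relative range, from 0.27 to 2.89.

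Across the 68 members, only the ephrin Efnb3 passed the threshold of the main test between the genotypes, an adjusted p (FDR) under 0.1 by edgeR's quasi-likelihood test with Benjamini-Hochberg adjustment over all genes. It was lower in APP/PS1 mice with both sexes averaged, so 1 of 68 members was called in that contrast, against 1.9% of all genes. No member was called in females, where 0.771% of all genes were, or in males, where 0.171% were. DESeq2, which called more genes, called 3 members in females (Plxna1, Sema3a and Unc5a, against 2.11% of all genes), 1 in males (Ephb1, against 1.04%) and 3 with the sexes averaged (Efnb3, Plxna1 and Unc5a, against 2.85%). The likelihood ratio test of edgeR called Sema3a in females (2.06% of all genes) and Ephb1 in males (1.01%). With the sexes averaged, that test also called Efnb3 (adjusted p 0.00382), but the share of all genes it called there was not counted.

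At an unadjusted p under 0.05, 17 of 68 members (25%) differed in females, against 9.79% of all genes, with 5 above and 12 below the WT level. In males 7 members (10.3%) did, against 5.7% of all genes. With the sexes averaged the number was 15 (22.1%), 5 higher and 10 lower, against 9.57% of all genes. The median log2 fold change of the members was -0.027 in females, -0.019 in males and -0.024 averaged, beside 0.012, 0.0053 and 0.0096 over all genes. The averaged value was below 0 for 58.8% of members and 45.3% of all genes. In bulk tissue, fewer cells of a type and less RNA per cell cannot be told apart, and the part of the microglia markers, of which 4 of 10 were called as higher with the sexes averaged, in these values was not tested.

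**Figure D2:**
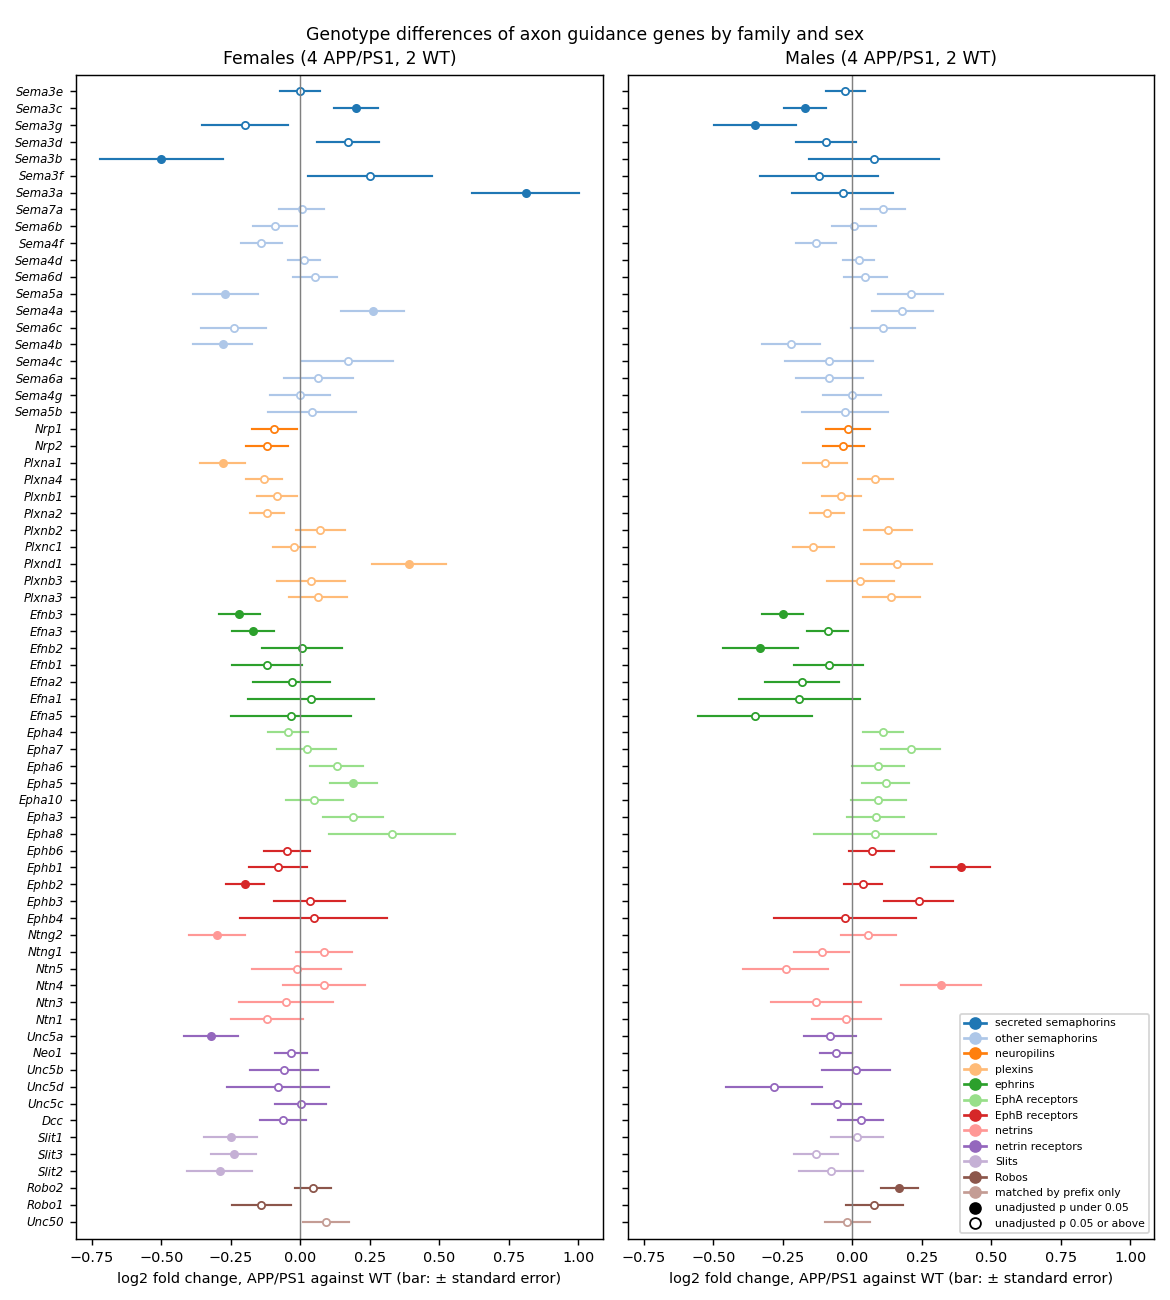
Log2 fold change of APP/PS1 against WT for each guidance gene in females (left) and males (right), with the standard error of the fit as bars and filled points for an unadjusted p under 0.05. In these fits all 7 ephrins lie below 0 in males and all 3 Slits below 0 in females, while the 7 EphA receptors lie above 0 in males and 6 of them in females. In some alternative fits of males, Efnb1 or Efna3 turned above 0, and Epha6, Epha8 or Epha10 below 0.

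Ephrins are the membrane-bound ligands of Eph receptors. Efnb3 (chr11:69554092-69560205, minus strand, GRCm38), a transmembrane ephrin known as a midline barrier for corticospinal axons, stood at 130, 148, 134 and 122 CPM in APP/PS1 females and at 161 and 156 CPM in WT females. In males it stood at 121, 135, 139 and 136 CPM in APP/PS1 and at 161 and 157 CPM in WT. All 8 APP/PS1 libraries were below all 4 WT libraries, with means of 133 ± 8.99 (SD, n = 8) and 159 ± 2.4 CPM (SD, n = 4). Efnb3 was the single member with that separation, which 0.136% of all genes showed as lower and 1.31% as higher, and no member was higher throughout.

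The fitted log2 fold change of Efnb3 was -0.24 ± 0.0518 (SE) with the sexes averaged, with an adjusted p of 0.0426 by edgeR's quasi-likelihood test. The values in each sex were close, -0.22 ± 0.0745 in females and -0.25 ± 0.0728 in males, with an interaction of 0.031 ± 0.105. The call did not hold without WT female 1 or without WT male 1, where the log2 fold change was -0.22 in both fits. Nor did it hold with the replicate number as a block (adjusted p 0.185 and 0.196, edgeR). There the log2 fold change was -0.24 with the factors for unwanted variation and -0.25 without them.

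The other 6 ephrins were also below 0 with the sexes averaged, between -0.19 for Efna5 and -0.077 for Efna1, without passing the adjusted threshold. Efna1 and Efna5 turned above 0 without the 3 choroid plexus-rich libraries or without WT female 2, and Efna1 without APP/PS1 female 1. Efna3, a lipid-anchored ephrin and after Efnb3 the most abundant, was at 54.8, 66.5, 66.9 and 67.8 CPM in APP/PS1 females against 74 and 67 CPM in WT females, so the groups overlapped. Efnb2, a transmembrane ephrin also known from blood vessels, was at 47.4, 39.2, 61.6 and 51.5 CPM in APP/PS1 males against 62.5 and 66.6 CPM in WT males, without overlap. The fit gave -0.33 ± 0.136 in males, with an adjusted p of 0.816 by edgeR, and 0.0067 ± 0.144 in females on the log2 scale. In males, 5 of 7 ephrins (Efna1, Efna2, Efna5, Efnb2 and Efnb3) were lower in every APP/PS1 library than in both WT libraries, as were 4.34% of all genes.

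EphA receptors are the tyrosine kinases read mainly by ephrin-A ligands, and none passed the threshold. All 7 EphA receptors had averaged log2 fold changes above 0, from 0.031 for Epha4 to 0.21 for Epha8, except that Epha4 turned to -0.044 without the 3 choroid plexus-rich libraries and to -0.042 without WT female 2. Epha5, a receptor for ephrin-A ligands, had the smallest p of the family. It was at 195, 191, 171 and 199 CPM in APP/PS1 females against 179 and 145 CPM in WT females, and at 197, 185, 192 and 179 CPM in APP/PS1 males against 184 and 165 CPM in WT males. The groups overlapped in both sexes, and the averaged log2 fold change was 0.16 ± 0.0592 with an adjusted p of 0.378 (edgeR). It was 0.078 without WT female 2 and 0.077 without the 3 choroid plexus-rich libraries.

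Among the EphB receptors, Ephb1 (chr9:101922128-102354693, minus strand), which binds ephrin-B ligands, was apart in males. It stood at 29.6, 31.5, 32.4 and 31.7 CPM in APP/PS1 males and at 28.1 and 20.2 CPM in WT males, whereas females ranged from 29.4 to 34.2 CPM in APP/PS1 and from 32.3 to 33.3 CPM in WT. Only WT male 2 was far below the others. The male log2 fold change was 0.39 ± 0.105, with an adjusted p of 0.354 by edgeR's quasi-likelihood test, and the female value was -0.08 ± 0.105, with an interaction of -0.47 ± 0.149 (adjusted p 0.995, edgeR). Without WT male 2 the male value was 0.17, and without WT male 1 it was 0.64 and called at an adjusted p of 0.0257 (edgeR), so its size rests on which WT male is used. Ephb1 shares 152 bases of exon with an antisense gene, Gm26846.

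Slits are large secreted repellents read by Robo receptors. All 3 were lower in APP/PS1 females at an unadjusted p under 0.05, as were 3.64% of all genes, and none passed the adjusted threshold. Slit1 (chr19:41600257-41743665, minus strand) was at 198, 227, 202 and 211 CPM in APP/PS1 females against 274 and 234 CPM in WT females, with no overlap. Slit2 (chr5:47983138-48307733, plus strand), named after its values were seen, was at 46.8, 47.9, 48.2 and 48.4 CPM against 55.2 and 62.9 CPM, again with no overlap.

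Slit3 (chr11:35121224-35708507, plus strand) was at 52.7, 62.6, 63.4 and 64.6 CPM in APP/PS1 females against 80.7 and 60.6 CPM in WT females. Here WT female 2 fell among the APP/PS1 libraries. The female log2 fold changes of Slit1, Slit2 and Slit3 were -0.25 ± 0.0952, -0.29 ± 0.117 and -0.24 ± 0.0804, with adjusted p-values of 0.403, 0.449 and 0.331 (edgeR). In males they were 0.016, -0.076 and -0.13 and the groups overlapped for all 3. The interactions of -0.27, -0.21 and -0.11 did not pass the test, so a difference between the sexes was not shown.

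The receptor Robo2 was at 110, 111, 116 and 108 CPM in APP/PS1 males and at 101 and 98.8 CPM in WT males. These male groups did not overlap, and the log2 fold change was 0.17 ± 0.0651 with an adjusted p of 0.702 (edgeR). In females Robo2 gave 0.045 ± 0.066, and Robo1 gave -0.14 ± 0.105.

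The 6 netrin receptors were below 0 with the sexes averaged, from -0.20 for Unc5a to -0.016 for Dcc, although at least 1 of Dcc, Unc5b, Unc5c and Unc5d turned above 0 in 9 of the alternative fits, while Unc5a and Neo1 did not in any. Unc5a (chr13:54949411-55006018, plus strand), a receptor that mediates repulsion from netrin, was at 99.8, 118, 135 and 125 CPM in APP/PS1 females and at 149 and 146 CPM in WT females. Both WT females were above all 4 APP/PS1 females, while in males the values of 117, 113, 124 and 144 CPM in APP/PS1 overlapped those of 126 and 144 CPM in WT. The log2 fold change was -0.32 ± 0.0971 in females (adjusted p 0.272, edgeR) and -0.08 ± 0.0946 in males. Unc5a shares 34 bases of exon with the antisense gene Hk3.

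Of the netrins, Ntng2, which binds a leucine-rich repeat partner across the synapse, was at 17.6, 23.7, 24 and 21.4 CPM in APP/PS1 females against 25.9 and 26 CPM in WT females, with no overlap. Its log2 fold change was -0.30 ± 0.102 in females (adjusted p 0.345, edgeR) and 0.058 ± 0.1 in males. It shares 558 bases of exon with 6530402F18Rik on the same strand, and how the counting treated reads there is not given. Ntn4, a netrin of basement membranes, was at 8.11, 10.5, 6.13 and 6.72 CPM in APP/PS1 males against 5.85 and 5.62 CPM in WT males, without overlap, and gave 0.32 ± 0.144 (adjusted p 0.87, edgeR). Its highest value was that of APP/PS1 male 2, a choroid plexus-rich library, and neither WT male was one. The averaged log2 fold change of Ntn4 ran from 0.03 to 0.38 over 25 alternative fits.

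Class 3 semaphorins are secreted, and in females the fitted values of the 7 of them spread from -0.50 to 0.81, wider than any other family. Sema3a (chr5:13125414-13602565, plus strand) is the growth cone collapsing ligand of neuropilin 1 and plexin A receptors. The study picked it from these animals, as changed in females only at an FDR under 0.1 by edgeR's likelihood ratio test. Its choice also rested on an interaction p under 0.05, so the interaction given below is not independent of it. Sema3a stood at 5.45, 8.33, 5.94 and 6.13 CPM in APP/PS1 females and at 3.78 and 3.49 CPM in WT females. Every APP/PS1 female was above both WT females, with APP/PS1 female 2 the highest of all. In males, Sema3a was at 5.96, 4.14, 4.77 and 4.4 CPM in APP/PS1 and at 4.95 and 5.26 CPM in WT, within the same range.

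Sema3a gave a log2 fold change of 0.81 ± 0.191 in females, the largest of the 68 members, and -0.034 ± 0.181 in males. The adjusted p in females was 0.107 by edgeR's quasi-likelihood test, just outside the threshold, while DESeq2 gave 0.0162 and edgeR's likelihood ratio test 0.011. The interaction was 0.85 ± 0.262, with an unadjusted p of 0.00664 and an adjusted p of 0.995 (edgeR). Without APP/PS1 female 2 the female value was 0.63, with an adjusted p of 0.286 (edgeR).

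Sema3c (chr5:17574281-17730268, plus strand), a secreted semaphorin that also binds neuropilins, was chosen after its values were seen. It was at 31.1, 27.9, 32.9 and 42.8 CPM in APP/PS1 females against 26.7 and 26.8 CPM in WT females, and at 30.9, 31.8, 32.5 and 25.4 CPM in APP/PS1 males against 34.2 and 32.6 CPM in WT males. The genotypes separated in both sexes and in opposite directions, in males only by 32.5 CPM in APP/PS1 against 32.6 CPM in WT. The share of all genes with such an opposite separation was not counted. Log2 fold changes were 0.20 ± 0.0778 in females and -0.17 ± 0.0745 in males, and the interaction of 0.37 ± 0.108 had an unadjusted p of 0.0045 and an adjusted p of 0.995 (edgeR). Sema3e, the most abundant of the class, which signals through plexin D1, differed little, with an averaged log2 fold change of -0.014 ± 0.0506.

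**Figure D3:**
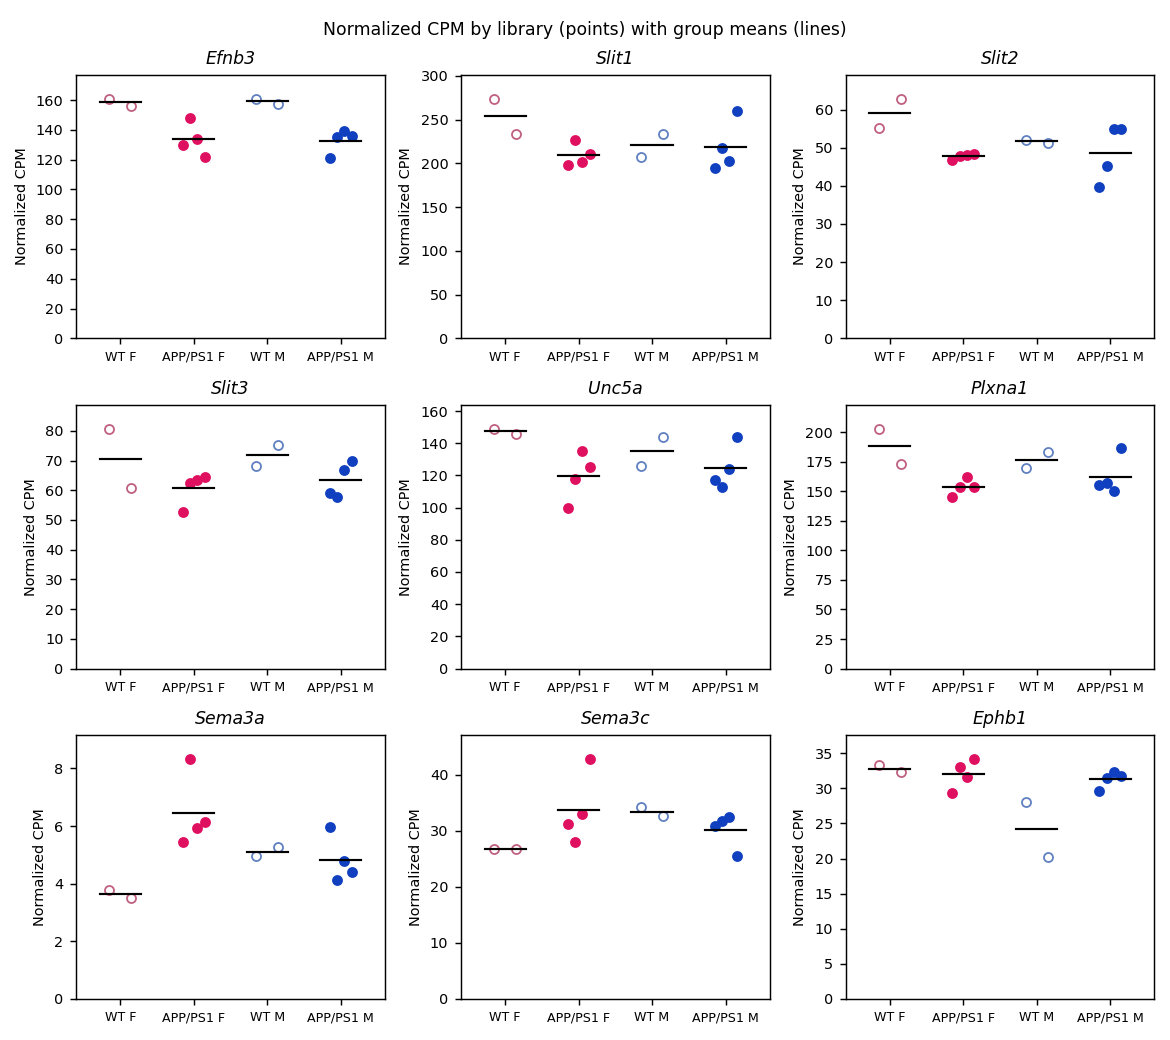
Normalized CPM (linear axes from 0) of 9 guidance genes in each library by genotype and sex (F, female; M, male), with group means as lines. Efnb3 is lower in all 8 APP/PS1 libraries (121 to 148) than in the 4 WT libraries (156 to 161), Sema3a is higher in the 4 APP/PS1 females (5.45 to 8.33) than in the 2 WT females (3.49 and 3.78), and in Ephb1 the 2 WT males lie lowest (20.2 and 28.1).

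The other semaphorins are mostly membrane proteins. Sema4b, a class 4 transmembrane semaphorin, had the smallest averaged p among them. It was at 13.2, 16, 14.3 and 13.8 CPM in APP/PS1 females against 18.7 and 16.9 CPM in WT females, without overlap, and at 11.5, 12.1, 14.9 and 16 CPM in APP/PS1 males against 15.6 and 16.9 CPM in WT males, where APP/PS1 male 4 fell between the WT values. The averaged log2 fold change was -0.25 ± 0.0744 with an adjusted p of 0.192 (edgeR). Sema5a, chosen after its values were seen, gave -0.27 ± 0.118 in females and 0.21 ± 0.118 in males, and its 2 WT females were far apart at 154 and 109 CPM.

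Semaphorin receptors included the 2 neuropilins, with averaged log2 fold changes of -0.055 ± 0.057 for Nrp1 and -0.076 ± 0.0525 for Nrp2. Of the 9 plexins, Plxna1 (chr6:89316314-89362620, minus strand) was at 145, 154, 162 and 154 CPM in APP/PS1 females and at 203 and 173 CPM in WT females, with no overlap. In males it was at 155, 157, 150 and 187 CPM in APP/PS1 and at 170 and 183 CPM in WT, where APP/PS1 male 4 was the highest. The averaged log2 fold change was -0.19 ± 0.0557 with an adjusted p of 0.192 (edgeR). Plxna1 shares 970 bases of exon with the antisense gene Gm26811. Plxnd1, the plexin that reads Sema3e and is known from blood vessels, had the largest positive plexin value, 0.39 ± 0.133 in females (adjusted p 0.348, edgeR), and was also chosen after its values were seen.

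Members were also counted by whether the libraries of the genotypes overlapped within a sex. In females, 8 of 68 members (11.8%) were lower in every APP/PS1 library than in both WT libraries, namely Efnb3, Ntng2, Plxna1, Sema4b, Sema6c, Slit1, Slit2 and Unc5a, against 6.61% of all genes. Another 5 (7.35%) were higher, namely Epha3, Epha8, Sema3a, Sema3c and Unc50, against 12.5% of all genes. In males, 7 members (10.3%) were lower, the 5 ephrins named above with Sema3c and Sema3g, against the 4.34% given above, and Ephb1, Ntn4 and Robo2 (4.41%) were higher, against 6.5%. Efnb3 was on both lists of lower genes.

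No member was called for the interaction of genotype and sex, for which 0% of all genes passed edgeR's quasi-likelihood test, and DESeq2 and the likelihood ratio test called none either. At an unadjusted p under 0.05 it held 8 members (Ephb1, Ephb2, Ntng2, Plxna4, Sema3a, Sema3c, Sema5a and Sema6c), or 11.8% against 4.03% of all genes. Females and males of the same genotype were also compared. Among WT mice no member was called (0.0571% of all genes), although DESeq2 (0.271% of all genes) and the likelihood ratio test (0.3%) both called Ephb1, and 7 members (10.3%) had an unadjusted p under 0.05 against 5.19% of all genes. Among APP/PS1 mice no member was called (0.0857% of all genes), by those tools either, and 5 members (7.35%) had an unadjusted p under 0.05 against 5.35%. When the factors of unwanted variation came from an initial test on the averaged contrast, 7 members were called between the APP/PS1 sexes, as were 7.87% of all genes.

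In WT mice the largest sex difference was that of Ephb1, higher in females by a log2 fold change of 0.51 ± 0.125 (adjusted p 0.546, edgeR). In APP/PS1 mice it was 0.041 ± 0.0832. The smallest p in APP/PS1 mice was that of Ephb3, an EphB receptor chosen after its values were seen, at 13, 15, 14.1 and 10.8 CPM in females and 18.3, 18.6, 15.4 and 16.2 CPM in males. The sexes did not overlap, but the share of all genes with such a separation was not counted. The log2 fold change of females against males was -0.39 ± 0.101, with an adjusted p of 0.742 (edgeR).

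Some guidance genes followed the 3 libraries rich in choroid plexus transcripts. Sema3b (chr9:107597674-107609229, minus strand), a secreted semaphorin chosen after its values were seen, was at 10, 13.4 and 13.8 CPM in them and at 1.29 to 1.96 CPM in the other 9, a ratio of means of 7.54. Sema3f, another class 3 semaphorin, ranged from 6.59 to 7.48 CPM against 2.38 to 5.3 CPM, and Plxnb2, a plexin for class 4 semaphorins, from 76.1 to 88.4 CPM against 48.9 to 63.6 CPM. These 3 were the members higher in all 3 libraries than in any other, while 5.53% of all genes were, and Ntng1 was the member lower in all 3, while 1.16% were. The averaged log2 fold change of Sema3b was -0.21 ± 0.16 with the factors for unwanted variation and 0.16 without them. Efnb3 was -0.25 without these libraries, with an adjusted p of 0.0659 (edgeR).

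**Figure D4:**
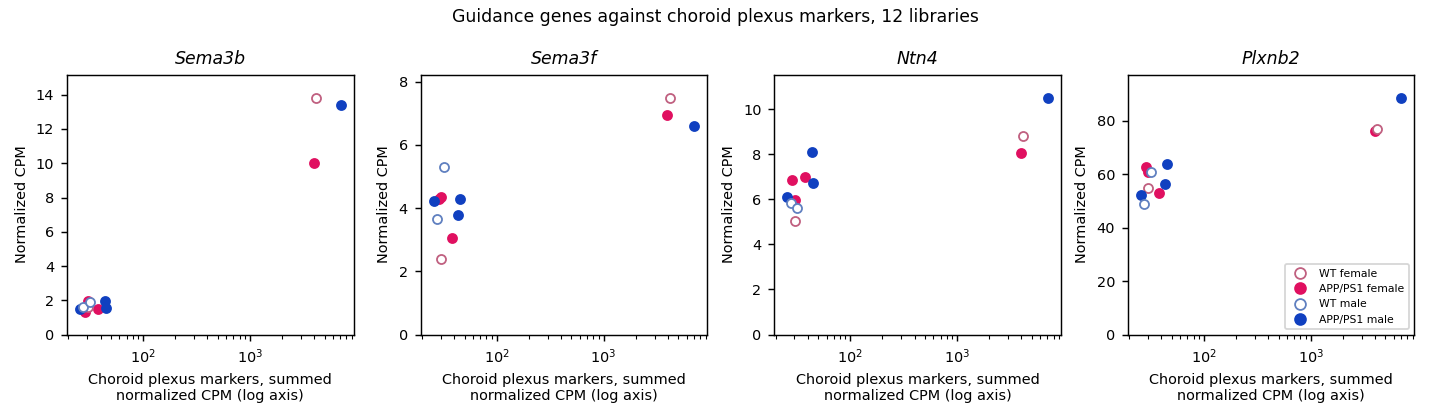
Normalized CPM of Sema3b, Sema3f, Ntn4 and Plxnb2 (linear axes from 0) against the summed level of 10 choroid plexus markers (log axis) in the 12 libraries, with open points for WT and filled points for APP/PS1. Sema3b is at 10 to 13.8 in the 3 libraries with markers at 3966 or above and at 1.29 to 1.96 in the rest. Ntn4 is at 8.08 to 10.5 in those 3 libraries and at 5.03 to 8.11 in the rest, with a narrow overlap.

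Other genes of the guidance pathways were read from 3 lists. Of 12 other cues (such as the repulsive guidance molecules and Flrt proteins), 10 were tested, and of 20 other receptors, among them Dscam, L1cam and the Nogo receptor Rtn4r, all 20 were. None was called in a genotype contrast by edgeR's quasi-likelihood test, with averaged medians of -0.013 and -0.012. At an unadjusted p under 0.05 the averaged contrast held 1 cue and 2 receptors, the likelihood ratio test called none, and DESeq2 called 1, the receptor Gfra1. Of 54 signalling genes downstream of guidance receptors, 1 was called with the sexes averaged, where 1.9% of all genes were. It was Fes, a tyrosine kinase that acts below plexin A1 and is also known from myeloid cells. The averaged median of this list was -0.0094, and that of all genes was 0.0096.

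Fes was at 4.69, 4.66, 4.35 and 3.01 CPM in APP/PS1 females against 2.57 and 2.92 CPM in WT females, and at 3.79, 4.65, 2.76 and 4.56 CPM in APP/PS1 males against 2.66 and 2.94 CPM in WT males. APP/PS1 male 3 alone fell among the WT values. The averaged log2 fold change was 0.59 ± 0.13, with an adjusted p of 0.045 (edgeR), and microglia markers such as P2ry12, Csf1r and Aif1 were also called as higher in that contrast. Their part in the value of Fes was not tested.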

How the data were processed

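Counts per gene were deposited by the authors without normalization, after trimming (Trimmomatic), alignment to GRCm38 (STAR) and counting (HTSeq). Versions and the strand setting of the counting are not given in the sources used here. Symbols, positions and exon lengths came from GENCODE release M21, which matched 55480 of 55573 identifiers. The filter kept genes that reached a log2 CPM of 1 or more in 3 or more libraries. The main test was the two-sided quasi-likelihood test of edgeR (version 4.0.16, under R 4.3.3), in 1 model of the 4 groups over all 12 libraries. It used upper-quartile scaling and 2 factors of unwanted variation (RUVg, re-implemented; controls were all but the top 5000 genes of an initial test). P-values were adjusted over all 14008 genes by the Benjamini-Hochberg method, and an FDR under 0.1 was a call. Library totals of 36714316 to 50643565 counts leave the spread between animals as the main error of all but the lowest genes. Same-group libraries differed by more than sampling noise (chi-square per degree of freedom 15.5 to 73 over 14 pairs).

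Levels per kb divide CPM by the exon length. All fold changes come from the fit and not from the CPM means. Alternatives comprised DESeq2 1.42.0, the likelihood ratio test of edgeR, other scaling, filters and factors, the replicate number as a block, and leaving out animals. The procedure was tested on simulated data, with larger changes than those of the members and without unwanted variation or choroid plexus-rich libraries. That test therefore does not show how well changes of the size seen here are recovered. Named with values were the members called, the member of each family with the smallest averaged p and that with the highest level, and Sema3a. All other members given with values were chosen after their values were seen. Members, lists and rules were chosen with earlier results of these data known.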

Additional observations from a re-analysis of the deposited data

Results flagged for a closer look

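Of 136 groups of 4 APP/PS1 libraries (68 members in 2 sexes), 7 had a library far from the other 3, judged by its gap to the nearest value as a share of the group's range, against Dixon's critical value for 4 samples. Chance flags about 1 in 20 groups, or 6.8 here. Sema3b was highest in APP/PS1 female 1 (0.925) and in APP/PS1 male 2 (0.959), which are choroid plexus-rich libraries. Efna3 (0.903) and Slit3 (0.83) were lowest in APP/PS1 female 1. Epha6 was highest in APP/PS1 female 4 (0.851), Unc50 in APP/PS1 female 2 (0.833) and Plxna3 in APP/PS1 male 4 (0.831).

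Sema3c was higher in every APP/PS1 female and lower in every APP/PS1 male than in both WT animals of that sex. How many of all genes did so was not counted. The test of the difference between the sexes, the interaction of 0.37 on the log2 scale, had an adjusted p of 0.995 by edgeR's quasi-likelihood test.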

How the results depend on the processing

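Over 33 values of named members, 832 refitted values gave 772 with the same sign and side of the threshold, 4 that lost the call (all Efnb3), 17 that gained one and 39 of the opposite sign, none of the last a call in the main model. The cause of these changes was not tested. The averaged log2 fold change of Efnb3 ran from -0.27 to -0.22 over 25 alternatives and was called in 21. Deviations from the group means had a correlation over 0.1 in 4 of 14 same-numbered pairs, from -0.633 to 0.685. With 2 WT animals per sex their deviations mirror each other, so pairs with a WT animal cannot show whether replicate numbers mark a batch. The highest value paired WT female 2 with APP/PS1 male 2, both choroid plexus-rich. APP/PS1 females paired with APP/PS1 males gave -0.419, -0.431, 0.233 and -0.176, too few values to settle it. With the replicate number as a block, Efnb3 was -0.24 with the factors (adjusted p 0.185, edgeR) and -0.25 without them (0.196), and the block with factors called 2 members averaged (Sema3a and Unc5a) and 2 in females. For fits with the block, or with the filter, libraries or animals left out, the share of all genes called was not counted. Member counts of those fits therefore have no base rate beside them. Members called in females numbered 1 by the likelihood ratio test (2.06% of all genes), 3 by DESeq2 (2.11%), and 2 without an expression filter or without the 3 choroid plexus-rich libraries. In males they numbered 1 by the likelihood ratio test and by DESeq2, and averaged 3 by DESeq2 and 2 without a filter or without the 3 libraries. Between WT sexes they numbered 1 by the likelihood ratio test, by DESeq2 and without the 3 libraries, and between APP/PS1 sexes 7 of 68 (7.87% of all genes) when the factors came from an averaged initial test. Leaving out each animal gave 0 to 1 in females, 0 to 1 in males, 0 to 2 averaged and 0 to 1 between WT sexes. In these fits a lone WT animal is assumed to vary like the other groups. Sema3a in females gained a call without APP/PS1 male 1 (adjusted p 0.0677, edgeR) and APP/PS1 male 4 (0.0844), which are in the fit only through the shared spread and factors.

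Averaged values ran from 0.08 to 0.23 for Epha5, 0.04 to 0.18 for Robo2, -0.26 to -0.13 for Plxna1, -0.34 to -0.14 for Unc5a and -0.30 to -0.09 for Slit3 over 25 alternatives. These values took the opposite sign. Ephb6 was -0.0011 by DESeq2, -0.0038 without a filter and -0.021 and -0.054 under the block with and without factors. Sema3e was 0.025 without factors, 0.024 with 1 factor or with the block and factors, 0.03 with a choroid plexus score, 0.0026 with an averaged initial test and 0.0044 without the 3 libraries, where Epha4 was -0.044. Sema5a was 0.029 without factors, 0.034 with 1 factor, 0.051 with the block and factors, 0.037 with the score, 0.0012 with an averaged initial test and 0.056 with the block alone. Sema3b was 0.16 without factors and 1.07 with the block alone, Sema3c -0.016 and Sema3a in males 0.22 with the block and factors. Leaving out each animal, averaged values ran from -0.042 to 0.098 for Epha4, -0.026 to 0.074 for Ephb6, -0.11 to 0.0074 for Nrp1, -0.79 to 0.083 for Sema3b, -0.013 to 0.048 for Sema3c, -0.038 to 0.016 for Sema3e and -0.15 to 0.086 for Sema5a, and in males from -0.15 to 0.071 for Sema3a.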
